A study of Mus musculus with 16 samples.

Results

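Enolase converts 2-phosphoglycerate to phosphoenolpyruvate, the step of glycolysis between phosphoglycerate mutase and pyruvate kinase. The mouse genome holds several enolase genes. Eno1 encodes the α form found in most tissues, Eno2 encodes the γ form that is known as neuron-specific enolase, and Eno3 encodes the β form of muscle. Eno1b is annotated on chromosome 18 and is a close copy of Eno1 with few introns, as a gene formed by reverse transcription of a spliced mRNA has. These 4 genes, of 25006 listed, were followed in mRNA from dopaminergic neurons of the substantia nigra, and their shares in the family total were compared between genotypes. They were chosen on that comparison, in which Eno1 and Eno1b already stood out, so their differences between genotypes are a description. The calls that a fit over all genes gives them are counted once below beside those of all genes, and nothing is read from them.

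The mRNA came from 16 mice, 1 library each, aged 45 postnatal days. The 8 control mice carried 1 copy of DAT-Cre (DAT-Cre +/-), in which Cre is expressed from the dopamine transporter locus. The 8 MCU-KO mice, of genotype DAT-Cre+/- MCU fl/fl, carried the same Cre together with 2 floxed copies of Mcu, so that the pore subunit of the mitochondrial calcium uniporter was deleted in cells with Cre. Both genotypes received an adeno-associated virus with a Cre-dependent tagged ribosomal protein (RiboTag), and 30 days later the tagged ribosomes were immunoprecipitated from dissected tissue with the polyadenylated RNA they carried. According to the methods of the study, controls came from crosses of DAT-Cre mice with C57/BL6 mice and MCU-KO mice from crosses of the floxed line with DAT-Cre mice, so breeding and the loss of Mcu cannot be told apart here. In such pulldowns fewer labeled cells and less RNA per cell cannot be distinguished either. The p-values of fits over all genes set differences between genotypes against the spread between mice. Those of correlations come from re-pairing the values of the 8 mice of a genotype.

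Libraries held 18999107 to 22016362 counts in control and 14129527 to 20582204 in MCU-KO mice. Mcu had 120.3 to 828 normalized counts (counts divided by a size factor for each library) in control and 5.82 to 410.1 in MCU-KO mice, with a log2 fold change between genotypes of −1.19 ± 0.59 (SE, 95% interval −2.41 to 0.04), so the genotypes overlapped in counts of the deleted gene. The paper reports that the knockout was verified by quantitative PCR of Mcu in RiboTag mRNA and by lower mitochondrial calcium responses. All 8 markers of dopaminergic neurons passed the filter on low counts, and their summed level was 232784 to 299039 normalized counts in control and 200463 to 343193 in MCU-KO mice. Of the 6 astrocyte, 6 oligodendrocyte, 6 microglia and 3 GABAergic neuron markers, all were detected. The sums ranged from 6277 to 12705 against 8759 to 17121 for astrocytes, from 54434 to 105394 against 64367 to 124240 for oligodendrocytes, from 479 to 1874 against 557 to 2643 for microglia, and from 2081 to 4867 against 1522 to 5316 for GABAergic neurons, control first. Of the fold changes, 5 of 6 astrocyte, 5 of 6 oligodendrocyte, 5 of 6 microglia and 2 of 3 GABAergic markers were above 0 on the log2 scale (medians 0.33, 0.13, 0.40 and 0.18), and 6 of 8 dopaminergic markers were below 0 (median −0.10). None of these 29 markers had an adjusted p under 0.05 with edgeR, DESeq2 or limma-voom, where edgeR called 0.178% of all 12390 tested genes. At an unadjusted p under 0.05 there were 1, 1 and 4 of the 29, against 4.41% of all genes with edgeR. For DESeq2 and limma-voom no such share over all genes is given here. Every sum overlapped between genotypes, and the part of these cells in the enolase values was not tested.

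How far the 4 genes can be told apart depends on their sequences. The stretch of 60 coding bases with the most differences between Eno1 and its copy is shown for Eno1, Eno2 and Eno3, read 5′ to 3′ along each gene from GENCODE M21 transcripts on GRCm38. It lies in exon 8 of each gene, at coding bases 691 to 750, on chr4:150246593-150246652 (plus strand) for Eno1, chr6:124763842-124763901 (minus strand) for Eno2 and chr11:70661020-70661079 (plus strand) for Eno3. Capitals in Eno1 mark the 3 bases that differ from Eno1b, and capitals in Eno2 and Eno3 mark the bases that differ from Eno1, 12 and 17 in number.
Eno1: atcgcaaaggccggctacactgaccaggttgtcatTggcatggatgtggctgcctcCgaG
Eno2: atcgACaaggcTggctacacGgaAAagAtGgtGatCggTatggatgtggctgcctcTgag
Eno3: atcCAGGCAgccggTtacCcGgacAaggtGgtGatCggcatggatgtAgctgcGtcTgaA
A read from Eno2 or Eno3 would thus carry many differences from Eno1, while a read from Eno1b would carry few even here.

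Over the whole coding sequence, which has 1305 bases in all 4 genes, Eno1 and Eno1b differed at 8 positions. All 8 were the last base of a codon, and all 434 encoded residues were identical. The 8 positions fell in exons 8, 9 and 11 of Eno1, and the first 435 coding bases held 0 of them. The aligned part of both transcripts ran over 1652 bases with 9 substitutions (an identity of 99.5%), without a gap, and the longest run without a difference was 751 bases. The other pairs were far less alike: Eno1 and Eno2 were identical at 75.1% of coding bases and 82.9% of residues, Eno1 and Eno3 at 76.7% and 83.6%, and Eno2 and Eno3 at 76.8% and 82.9%.

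Of all stretches of 50 bases in the Eno1 coding transcript, 66.3% occur in that of Eno1b, and 75.3% of those of Eno1b occur in Eno1. No stretch of that length was common to Eno2 or Eno3 and another member. Over all annotated transcripts of a gene, including those with retained introns, 26.0% of the stretches of Eno1 and 85.2% of those of Eno1b occur in some other gene, against 0.136% for Eno2 and 0% for Eno3. A further 3 annotated genes hold over 10% of their stretches in common with Eno1. These are the pseudogenes Gm4735 on chromosome 2 with 83.3% (and 91.8% in common with Eno1b), Gm13685 with 13.0% and Gm5855 with 10.8%, which were not analysed here. Counts of Eno1 and Eno1b are therefore uncertain to the extent that reads from shared stretches were assigned to one gene, the other or neither, and the read length and the handling of such reads are not given in the sources used here.

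**Figure D1:**
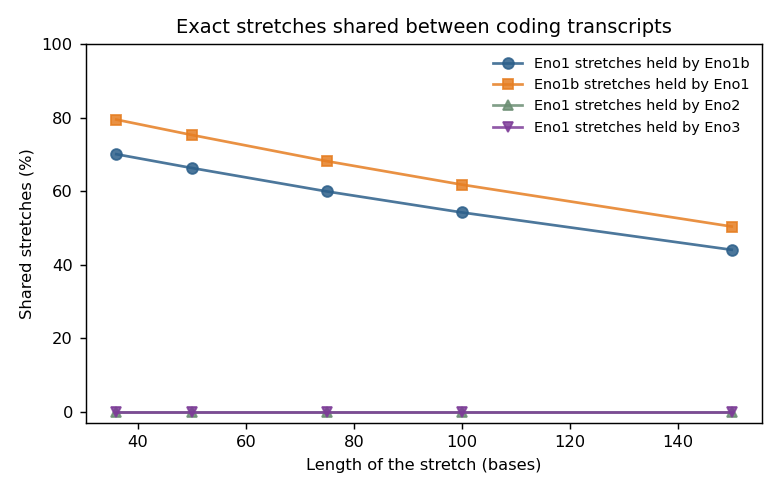
Share of exact stretches common to 2 enolase coding transcripts (y axis, %) against the length of the stretch in bases (x axis). The share went from 70.0% to 44.0% of Eno1 stretches and from 79.4% to 50.4% of Eno1b stretches between 36 and 150 bases, and the lines for Eno2 and Eno3 lie on each other at 0.

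Eno1 was the most abundant enolase of the control neurons in counts, and it was lower in MCU-KO neurons. Control mice had 14463 (lowest), 16500 (median) and 20375 (highest) normalized counts, and MCU-KO mice had 7593, 8753 and 11585. The highest MCU-KO mouse (mouse 1) thus lay below the lowest control mouse, which was also numbered 1. Group means were 17130 ± 1888 (SD, n = 8) and 9315 ± 1585 (SD, n = 8), and the log2 fold change (MCU-KO over control) was −0.88 ± 0.10 (SE, 95% interval −1.09 to −0.67), an amount 1.84 times lower. Per kilobase of the longest transcript, Eno1 ranked 173rd of 12387 tested genes in control and 375th in MCU-KO mice.

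Eno1b was scarce in control neurons and 16.4 times more abundant in MCU-KO neurons. Control mice had 33.5, 66.7 and 132.9 normalized counts (lowest, median and highest), from 38 to 130 counts, and MCU-KO mice had 891, 1151 and 1454, from 807 to 1512 counts. Each MCU-KO mouse lay far above each control mouse, and all 16 mice had counts for the copy. Means were 73.1 ± 28.4 (SD, n = 8) and 1199 ± 201.7 (SD, n = 8), giving a log2 fold change of 4.03 ± 0.28 (SE, 95% interval 3.46 to 4.61). In level per kilobase, 21.8% of tested genes lay below Eno1b in control and 81.6% in MCU-KO mice.

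Eno2, the neuronal form, had fewer normalized counts than Eno1 in all 8 control mice, by an amount that depended on length scaling. The level of Eno2 overlapped between genotypes. Control mice had 12314, 14130 and 15863 normalized counts (lowest, median and highest), and MCU-KO mice had 10866, 13116 and 16925. The lowest and the highest of the 16 values came from MCU-KO mice, so the control range lay within that of MCU-KO. The log2 fold change was −0.07 ± 0.09 (SE, 95% interval −0.26 to 0.11), from means of 14067 ± 1201 (SD, n = 8) and 13359 ± 1869 (SD, n = 8).

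Eno3, the muscle form, was low and varied widely between mice of both genotypes. Control mice had 36.6, 244.0 and 534 normalized counts (lowest, median and highest), and MCU-KO mice had 163.6, 336 and 812. The lowest mouse was control mouse 4 and the highest MCU-KO mouse 1, and the ranges overlapped over most of their length. The log2 fold change was 0.69 ± 0.48 (SE, 95% interval −0.30 to 1.68), an interval that includes 0.

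**Figure D2:**
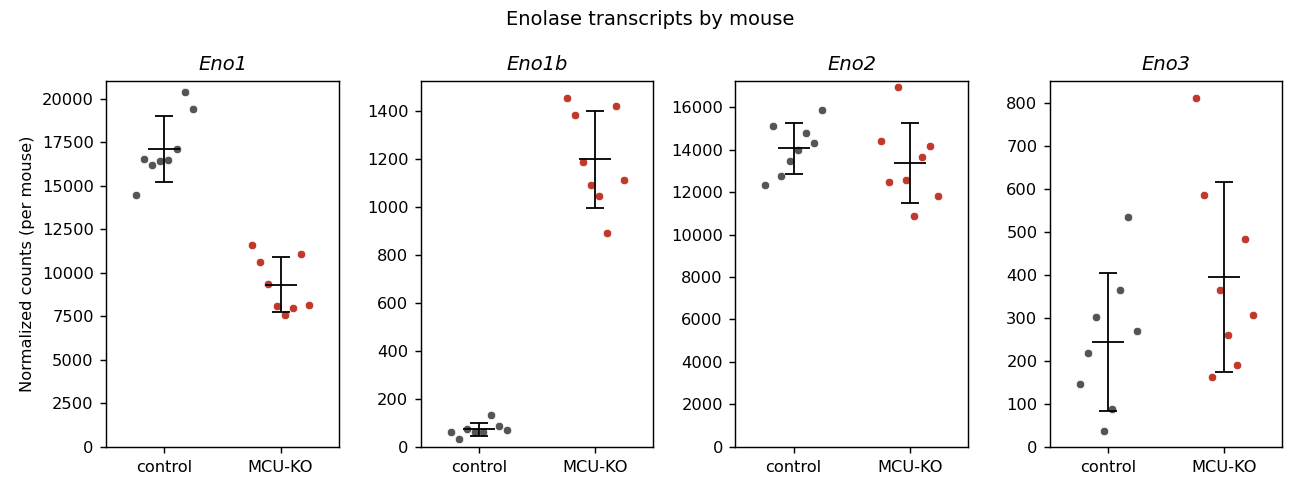
Normalized counts (y axis, from 0 in each panel, with its own scale) of the 4 enolases in control and MCU-KO mice, one point per mouse in the order of the mouse numbers, with the mean and SD of 8 mice. Eno1 (14463 to 20375 against 7593 to 11585) and Eno1b (33.5 to 132.9 against 891 to 1454) separate the genotypes completely, and Eno2 and Eno3 overlap.

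Of the 4 members, 2 (Eno1 and Eno1b) had a p under 0.05 in the quasi-likelihood test of edgeR after adjustment by Benjamini and Hochberg, against 22 of 12390 tested genes (0.178%), 0.0888% in each direction. DESeq2 called the same 2 members, against 0.579% of genes. These 2 were also the members whose normalized counts had separate ranges in the genotypes, against 0.258% of tested genes (0.129% in each direction). Both members were chosen on this comparison, so nothing is read from these counts. The fifth annotated enolase gene, Eno4, an enolase-like gene known from sperm, passed the filter but had 0 to 78 counts in control and 0 to 144 counts in MCU-KO mice, and was left out of the family total.

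The spread between mice was small for the abundant members. The coefficient of variation was 11.0% in control and 17.0% in MCU-KO mice for Eno1, 8.54% and 14.0% for Eno2, 38.9% and 16.8% for Eno1b, and 65.6% and 55.7% for Eno3. Over all tested genes its median was 42.6% in control and 39.9% in MCU-KO mice. Counting error alone amounts to 12.1% for Eno1b and 8.39% for Eno3 in control, and to 2.93% and 5.70% in MCU-KO mice.

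The make-up of the family differed between genotypes. Eno1 made up 54.3% ± 1.77 (SD, n = 8) of the counts of the 4 genes in control mice, from 51.8% to 57.7%, and 38.3% ± 2.99 (SD, n = 8) in MCU-KO mice, from 33.9% to 42.4%. Eno2 made up 44.7% ± 2.03 (SD, n = 8), from 40.5% to 47.4%, and 55.1% ± 4.13 (SD, n = 8), from 49.7% to 61.2%. In counts, Eno1 was thus the larger part of the family in all control mice and Eno2 in all MCU-KO mice. Other length scalings did not keep this order in every mouse. Per kilobase of all annotated exons, Eno2 was above Eno1 in 1 of 8 control and 8 of 8 MCU-KO mice. Per kilobase of the longest transcript, it was above Eno1 in 0 of 8 and 5 of 8. The Eno2 level itself overlapped between genotypes.

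Eno1b took 0.232% ± 0.085 (SD, n = 8) of family counts in control and 4.94% ± 0.549 (SD, n = 8) in MCU-KO mice. The lowest control share was 0.105% in mouse 2 (95% exact binomial confidence interval 0.0743% to 0.144%), and the highest was 0.410% in mouse 6 (0.343% to 0.487%). In MCU-KO mice the lowest was 3.92% in mouse 6 (3.68% to 4.16%) and the highest 5.51% in mouse 2 (5.23% to 5.80%). Eno3 took 0.757% ± 0.456 (SD, n = 8) and 1.60% ± 0.748 (SD, n = 8), with overlapping ranges. These intervals cover counting error only.

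The size of the shifts, and which member was the larger part in MCU-KO mice, depended on how length was treated. Per kilobase of all annotated exons, the Eno1 share went from 50.1% to 31.8% and the Eno1b share from 0.612% to 11.7%, both without overlap. The Eno2 share then went from 47.1% ± 2.31 (SD, n = 8) to 52.4% ± 4.69 (SD, n = 8), and the genotypes overlapped. Per kilobase of stretches that no other member holds, Eno1 was the largest part in both genotypes, with 82.4% ± 0.956 in control and 63.7% ± 1.85 in MCU-KO mice (SD, n = 8). This scaling divides all counts of a gene by its own stretches of 50 bases alone. It holds only if no read from a shared stretch was counted, which is not known, and otherwise raises Eno1 and Eno1b against Eno2. On that scale Eno2 had 16.5% ± 1.08 and 22.4% ± 2.83, and Eno1b had 0.544% ± 0.201 and 12.7% ± 0.922 (SD, n = 8). Per kilobase of the longest transcript, Eno1 had 61.7% and 44.5%, and Eno2 had 36.9% and 46.6%.

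**Figure D3:**
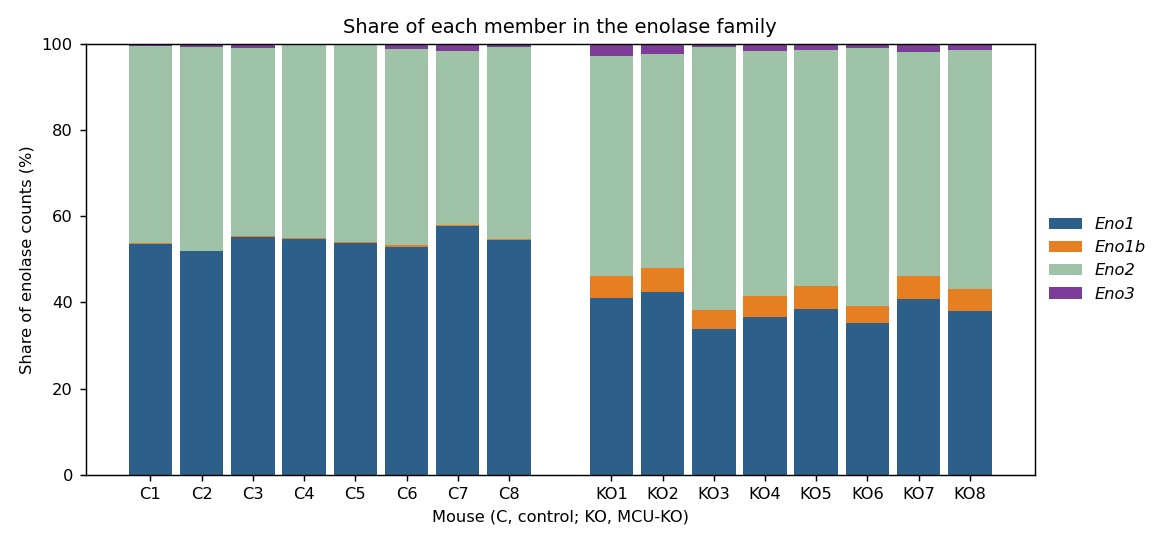
Share of each enolase in the counts of the 4 genes (y axis, %, stacked from 0 to 100) for each mouse (x axis, C for control and KO for MCU-KO). The Eno1 segment covers 51.8% to 57.7% in control and 33.9% to 42.4% in MCU-KO mice, where a band of Eno1b of 3.92% to 5.51% lies above it.

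The gain of Eno1b did not match the loss of Eno1 in counts. Mean Eno1 was lower by 7815 normalized counts and mean Eno1b was higher by 1126, which is 14.4% of that difference. The sum of both genes, which does not depend on how reads that match both were divided, was 14525, 16548 and 20462 normalized counts in control (lowest, median and highest) and 8638, 9904 and 13039 in MCU-KO mice. The sums did not overlap. Their log2 fold change was −0.71 ± 0.10 (SE, 95% interval −0.92 to −0.50), against −0.88 for Eno1 alone. Reads assigned to neither gene do not enter this sum.

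The total of the family was 31515 ± 2941 normalized counts (SD, n = 8) in control and 24269 ± 3201 (SD, n = 8) in MCU-KO mice, with an overlap of the ranges (26984 to 35612 against 19764 to 28246). Set against the enzymes of glycolysis in the same mouse, the ranges did not overlap. Enolase counts made up 11.4% ± 0.343 (SD, n = 8) of those of all listed glycolytic enzymes in control, from 10.8% to 11.7%, and 9.64% ± 0.554 (SD, n = 8) in MCU-KO mice, from 8.62% to 10.5%. The enolase counts include those of Eno1, which was chosen for its difference between genotypes, so this separation is a description. How often other groups of genes separate in this way was not tested.

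Within MCU-KO mice, Eno1b counts were a nearly fixed share of Eno1 counts. Reads from stretches that both genes hold may be counted to either, and their part in this ratio was not tested. Eno1b counts were 12.9% ± 0.848 (SD, n = 8) of Eno1 counts, with a lowest value of 11.1%, a median of 12.9% and a highest value of 13.8%. In control mice they were 0.427% ± 0.161 (SD, n = 8), with 0.202%, 0.405% and 0.776%. The coefficient of variation of this ratio was 6.58% in MCU-KO mice, where counting error gives 3.11%, and 37.7% in control, where it gives 12.1%. It was smaller in MCU-KO mice than that of either gene alone (17.0% for Eno1 and 16.8% for Eno1b).

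The relation between the counts of the 2 genes was then examined within each genotype, while the choice had used their difference between genotypes. How reads from stretches common to both genes were divided is not known. The part of such reads in the correlations below was not tested. In MCU-KO mice, mice with more Eno1 had more Eno1b (Pearson's r = 0.92, exact permutation p = 0.00107, 0.0128 after Benjamini-Hochberg adjustment over 12 correlations, n = 8). Spearman's rho was 0.98 (exact permutation p = 0.000397, adjusted 0.00476, n = 8), and r was 0.84 without the 2 mice farthest from the median of Eno1. In control mice r was 0.30 (exact permutation p = 0.486, adjusted 0.583, n = 8) and rho 0.48 (exact permutation p = 0.243, adjusted 0.324), with r = 0.25 without the 2 farthest mice. The difference between the genotypes in this correlation was not tested, and counting error is larger in control. In log2 CPM (counts scaled to library size), 29 of 12389 other genes (0.234%) had a higher r with Eno1 than Eno1b had in MCU-KO mice, and 2999 (24.2%) in control mice.

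None of the other 5 pairs of members passed the adjusted threshold in either genotype. The closest in control were Eno1 and Eno2 (r = 0.70, exact permutation p = 0.0524, adjusted 0.157, rho = 0.83, exact permutation p = 0.0154, adjusted 0.0923, n = 8), with r = 0.78 without the 2 mice farthest from the median of Eno1. In MCU-KO mice Eno1b and Eno3 had r = 0.79 (exact permutation p = 0.0221, adjusted 0.133, n = 8) and rho = 0.71 (exact permutation p = 0.0576, adjusted 0.167), with r = 0.62 without the 2 farthest mice.

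**Figure D4:**
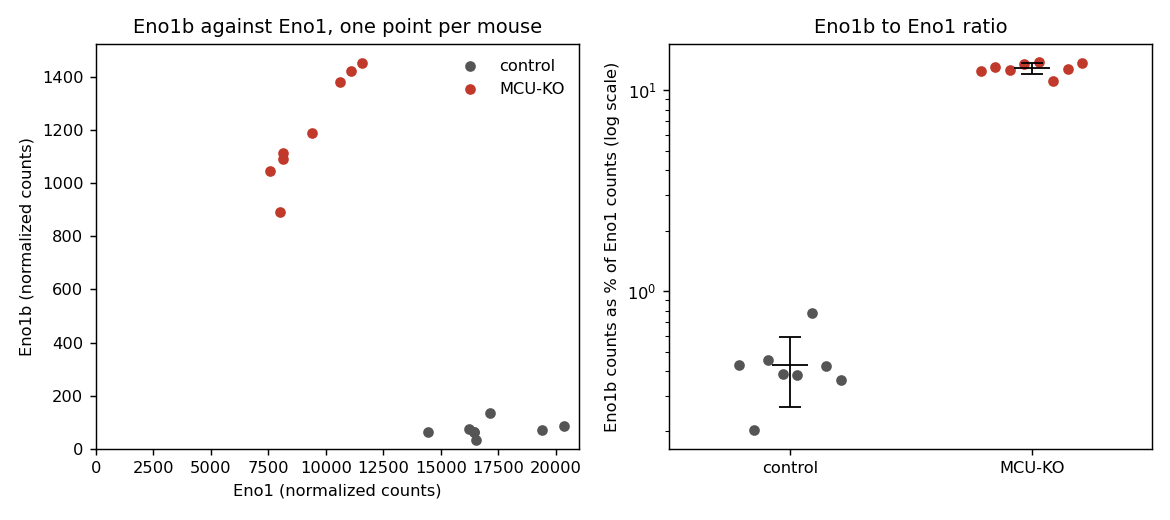
Left, Eno1b (y axis) against Eno1 (x axis) in normalized counts, one point per mouse, both axes from 0. Right, Eno1b counts in percent of Eno1 counts for each mouse on a log axis, in the order of the mouse numbers, with the mean and SD of 8 mice. MCU-KO mice lie along a rising band with a ratio of 11.1% to 13.8%, and control mice lie at high Eno1 and low Eno1b with a ratio of 0.202% to 0.776%.

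The levels of the members were put in order per kilobase of annotated exons, from the log2 ratio of neighbors within each mouse. These ratios hold the same values as the family shares on which the genes were chosen, so the order is a description. In control mice the order was Eno1, Eno2, Eno3 and Eno1b, with means of 3185, 2990, 140.8 and 38.9 normalized counts per kilobase. Eno1 exceeded Eno2 by a log2 ratio of 0.09 ± 0.11 (SD, n = 8) and in 7 of 8 mice, a mean smaller than its spread. Eno2 exceeded Eno3 by 4.77 ± 1.20 (SD, n = 8) in all 8 mice, and Eno3 exceeded Eno1b by 1.56 ± 1.16 (SD, n = 8) in 7 of 8 mice.

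In MCU-KO mice the order was Eno2, Eno1, Eno1b and Eno3, with means of 2839, 1732, 639 and 228 normalized counts per kilobase. Each step held in 8 of 8 mice. The log2 ratios were 0.72 ± 0.22 for Eno2 over Eno1, 1.44 ± 0.10 for Eno1 over Eno1b and 1.66 ± 0.62 for Eno1b over Eno3 (SD, n = 8). The place of Eno1 and Eno2 rests on the length used, since many annotated transcripts of both retain introns. Per kilobase of the longest transcript, Eno1 exceeded Eno2 in all 8 control mice (log2 ratio of Eno2 over Eno1 −0.74 ± 0.11, SD, n = 8), and in MCU-KO mice the ratio was 0.06 ± 0.22 (SD, n = 8), with Eno2 higher in 5 of 8 mice.

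The genes on either side of enolase in the pathway had intervals that included 0. Pgam1, a phosphoglycerate mutase that makes the substrate of enolase, had 3129 ± 355 normalized counts in control and 3213 ± 447 in MCU-KO mice (SD, n = 8), a log2 fold change of 0.04 (95% interval −0.19 to 0.27). Pkm, the pyruvate kinase that uses its product, had 26949 ± 3047 and 25821 ± 4654 (SD, n = 8), a log2 fold change of −0.06 (95% interval −0.27 to 0.15).

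Of 26 other glycolysis genes (glucose transporters, hexokinases to pyruvate kinases, and lactate dehydrogenases), 20 passed the filter on low counts. None had an adjusted p under 0.05 with edgeR, with DESeq2 or with limma-voom. Over all tested genes edgeR called only 0.178% and DESeq2 0.579%, so few calls could arise among so few genes, and nothing is read from their absence. At an unadjusted p under 0.05 there were 0 with edgeR, against 4.41% of all tested genes. DESeq2 had 2 of the 23 it fitted and limma-voom 1 of 20, for which no share over all genes is given here. Of the 20, 15 had a fold change below 0 on the log2 scale and 5 above, with a median of −0.11 against 0.003 over all tested genes. The smallest unadjusted p values belonged to Gapdh, Aldoc and Gpi1. Gapdh, glyceraldehyde 3-phosphate dehydrogenase, had a log2 fold change of −0.18 (95% interval −0.38 to 0.01). Aldoc, the brain aldolase, had −0.21 (95% interval −0.46 to 0.05), and Gpi1, glucose 6-phosphate isomerase, had −0.14 (95% interval −0.36 to 0.08). Pgk2, Pklr and Ldhc, forms of testis or liver, were at 0 in every mouse.

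**Figure D5:**
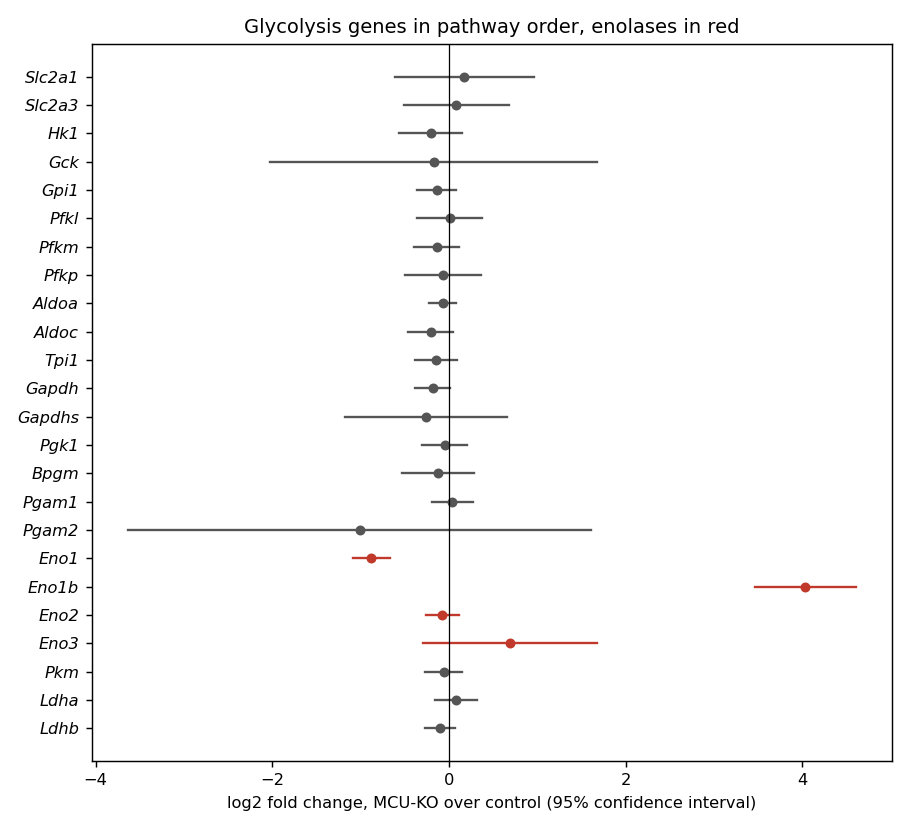
Log2 fold change between MCU-KO and control (x axis, points) with its 95% interval (lines) for 20 glycolysis genes (gray) and the 4 enolases (red), in pathway order from top to bottom. The intervals of Eno1 (−1.09 to −0.67) and Eno1b (3.46 to 4.61) lie away from 0, and all gray intervals include 0.

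Other steps of glycolysis that are served by several genes were examined in the same way as the enolases. In 6 families (glucose transporters, hexokinases, phosphofructokinases, aldolases, phosphoglycerate mutases and lactate dehydrogenases), chosen after the enolase values had been seen, the shares of the 18 genes overlapped between genotypes in every case. The largest difference of means was 2.68 percentage points, for Pgam1 in the mutases (65.0% ± 8.74 in control and 67.6% ± 7.77 in MCU-KO mice, SD, n = 8). Aldoa, the main aldolase, made up 85.3% ± 3.12 and 86.4% ± 3.02 of its family (SD, n = 8), and Ldhb, the lactate dehydrogenase form of oxidative tissues, 86.8% ± 1.74 and 85.3% ± 1.41 (SD, n = 8). For Eno1 the difference was −16.0 percentage points and for Eno2 10.4. These values stand side by side as a description, since the enolases were picked for theirs.

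Genes that varied with each member from mouse to mouse were found from deviations from the genotype means of log2 CPM over the 16 mice. For Eno1 the nearest were Pkm (r = 0.94), Aldoa (r = 0.92) and Snrpa (r = 0.90), an RNA-binding protein of the spliceosome. Pkm and Aldoa followed Eno1 within control (r = 0.95 and 0.80) and within MCU-KO mice (r = 0.93 and 0.98), although the log2 fold change between genotypes was −0.06 for Pkm and −0.07 for Aldoa. These are the highest of 12389 values and share libraries and depth, so they carry no p.

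For Eno1b the nearest genes were Ntng1 (r = 0.87), Chst1 (r = 0.85) and Myl12b (r = 0.84). Their r was 0.92, 0.91 and 0.90 within control, and 0.59, 0.69 and 0.85 within MCU-KO mice. Eno1b had only 38 to 130 counts in control mice, and these low counts enter each r of Eno1b over the 16 mice. For Eno2 the nearest were Wdr89 (r = 0.83), Dguok (r = 0.79) and Cnot10 (r = 0.79), and for Eno3 Mrps26 (r = 0.82), Taf6 (r = 0.82) and Ina (r = 0.82). Among all genes, Eno1b ranked 795th in likeness to Eno1 over the 16 mice (r = 0.48), behind Eno2 (374th, r = 0.57) and Eno3 (388th, r = 0.57).

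Genes close to the members in the genome were examined to describe their surroundings. Within 1 Mb of the start of a member, 16 genes were tested around Eno1 (GRCm38 chr4:150236721-150248879), 30 around Eno2 (chr6:124760053-124769673), 47 around Eno3 (chr11:70657202-70662513) and 1 around Eno1b. None passed the threshold with edgeR, DESeq2 or limma-voom, but only 0.178% of all tested genes did with edgeR, so few calls could arise among so few genes. At an unadjusted p under 0.05, edgeR had 3 around Eno1 (Per3 at 0.92, Park7 at −0.20 and Clstn1 at −0.24 on the log2 scale, named after their values were seen), against 4.41% of all tested genes, and 0 around each of the others. DESeq2 had 3 around Eno1, 1 around Eno2, 1 around Eno3 and 0 around Eno1b, and limma-voom had 3, 3, 2 and 0. No share over all genes is given here for DESeq2 and limma-voom, so nothing is read from their counts. The median log2 fold change was −0.07 around Eno1, −0.06 around Eno2 and 0.01 around Eno3. The single neighbor of Eno1b was Sema6a, a semaphorin, with a log2 fold change of −0.46 (95% interval −1.30 to 0.38), named here because it was the only gene.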

How the data were processed

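RNA was sequenced from RiboTag pulldowns of 16 mice, 8 control and 8 MCU-KO, grouped by the genotype in the sample labels. The authors trimmed reads with Trim Galore, used STAR for alignment to mm10 and HTSeq for counting, and deposited whole-number counts without normalization. Versions, strandedness, read length and the treatment of reads with several matches are not given in the sources used here. A floor of 3 counts equals 0.136 to 0.212 CPM (counts scaled to library size) in these libraries. The exact binomial intervals of the shares cover counting error alone. The intervals of log2 fold changes come from the edgeR fit and include the spread between mice. The sources name no molecular identifiers that would mark PCR copies.

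The members and all gene lists were chosen with earlier results of these data known. Genotypes were compared with edgeR 4.0.16 under R 4.3.3 (genes kept by filterByExpr, TMM normalization, glmQLFit and glmQLFTest, Benjamini-Hochberg adjustment over 12390 genes, threshold 0.05). Standard errors came from the coefficient and the F statistic. Normalized counts were divided by size factors of DESeq2 1.42.0. Ratios and correlations used log2 of normalized counts plus 1, and log2 CPM a prior count of 2. Symbols, positions, lengths and sequences came from GENCODE M21 on GRCm38, and 24991 of 25006 identifiers had a symbol. Shared sequence was counted as stretches of 50 bases on either strand. A comparison of Eno1 with the whole genome sequence was planned and not made, and annotated transcripts stood in for it.

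The genes named are the members, Eno4, Mcu, Pgam1 and Pkm, the glycolysis genes past the threshold and the 3 with the smallest p, the 3 genes most like each member, genes near a member past the threshold, and genes sharing over 10% of their stretches with Eno1. Genes named for their families or as neighbors of a member fall outside this rule. Sign-flip tests planned for the order of the members were left out, since the genes were chosen on these values. Alternatives were DESeq2, limma 3.58.1, other normalizations and filters, a block for the mouse number, other lengths and the omission of each mouse. The samples of the genotypes share numbers only: same-numbered mice had correlations of −0.06 to 0.03 in their deviations from the genotype means, and 0 of 8 numbers matched best. Tested on simulated data of 12390 genes with 200 changed, edgeR recovered 42% of 2-fold and 67% of 4-fold changes and called 11 unchanged genes among 120. Python 3.11.15, scipy 1.17.1 and matplotlib 3.10.9 were used for the rest.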

Additional observations from a re-analysis of the deposited data

Results flagged for a closer look

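Among 24 groups of 8 mice examined, 3 had a mouse far from the others (a gap to its nearest neighbor above Dixon's 95% limit), where chance gives about 1 in 20 groups. Eno1b counts were 0.776% of Eno1 counts in control mouse 6, against 0.202% to 0.453% in the other control mice. They were 11.1% in MCU-KO mouse 6, against 12.5% to 13.8% in the other MCU-KO mice. The library of MCU-KO mouse 8 held 14129527 counts, against 19897268 to 20582204 in the other MCU-KO mice. Without it the log2 fold changes were −0.85 for Eno1, 4.05 for Eno1b, −0.05 for Eno2 and 0.74 for Eno3, against −0.88, 4.03, −0.07 and 0.69 with all mice.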

How the results depend on the processing

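The log2 fold changes of the members kept their direction under every alternative run, but the members were chosen on this comparison, so this is no sign of stability. Across other tools, normalizations and filters, and without single mice, Eno1 lay between −0.93 and −0.84, Eno1b between 3.93 and 4.22, Eno2 between −0.13 and −0.03, Eno3 between 0.46 and 0.96, and the sum of Eno1 and Eno1b between −0.76 and −0.67, while 0 other glycolysis genes were called. Genes called numbered 22 of 12390 tested (0.178%) with all mice, and 18 to 24 without single mice. DESeq2 called 90, of which 22 were shared with edgeR. The replicate block for the mouse number, which the numbers do not justify as a pairing, gave 14, with Eno1 at −0.89 and Eno1b at 4.10. The cause of either change was not tested.

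Scaling by length moved the shares, as its construction implies. Against differences of 4.71, 10.4 and 0.846 percentage points for Eno1b, Eno2 and Eno3, per kilobase of exons they were 11.1, 5.25 and 1.94. Per kilobase of stretches held by no other member, a scaling chosen after seeing the data, Eno1b gave 12.2 and Eno2 5.92, and the Eno1b to Eno1 ratio in MCU-KO mice was 19.9% instead of 12.9%. That scaling holds only if no read from a shared stretch was counted, which is not known. Per kilobase of the longest transcript, also chosen later, Eno1b gave 6.20. Eno2 over Eno1 in control ranged from −0.11 to −0.055 without single mice, against −0.09. Over all annotated transcripts, 25.3% of Eno1 stretches of 50 bases occur in Eno1b, against 27.1%, 22.6%, 20.3% and 16.3% at 36, 75, 100 and 150 bases. Depth limits Eno1b in control (38 to 130 counts) and Eno4 most.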
